A study of Mus musculus with 12 samples.

Results

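Aortic valve leaflets in which fibulin-4 was deleted in smooth muscle cells were set against leaflets in which it was deleted in endothelial cells. The members were taken by label, with earlier results of these data known. They are the 3 libraries titled SMKO and the 3 titled ECKO, which make 6 of the 12 RNA sequencing libraries of the series. The other 6 libraries, 3 of control valves (CTRL) and 3 of the double deletion (DKO), entered the model that estimates the spread and are given beside a value where they help to place it. The mice were C57BL/6J;129SvEv animals aged 2 months in every group, and the labels give the genotype as a code only. In the study as it is known, ECKO stands for loss of Efemp2, the gene of fibulin-4, from endothelial cells, SMKO for its loss from smooth muscle cells, and DKO for both losses together. The sources used here do not name the Cre drivers, the deleted exons or the alleles of the control mice. Leaflets were cut out by laser from fixed, stained cryosections, and amplified cDNA was sequenced. The submitters describe biological triplicates and tie no animal to a library, so each p-value below measures the spread between these libraries.

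Fibulin-4 is a secreted glycoprotein of elastic fibres that binds elastin and the crosslinking enzyme lysyl oxidase. Mice without it have disordered elastic fibres and weakened large arteries. An aortic valve leaflet is a sheet of collagen, proteoglycan and elastin, covered by endothelial cells and filled with interstitial cells. It also holds macrophages and, in mice, pigment-producing melanocytes. A leaflet library averages over all of these, so fewer cells of a type and less RNA per cell cannot be told apart in any difference below.

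The libraries differed in depth and in quality. Total counts were 207637, 615665 and 379034 in ECKO 1, 2 and 3 and 530233, 263589 and 74827 in SMKO 1, 2 and 3. Genes encoded by mitochondrial DNA took 12.9% to 20.9% of counts in ECKO and 15.1%, 24.1% and 28.5% in SMKO 1, 2 and 3. Y-linked genes had 89 counts in SMKO 1 and at most 1 in the other 5 libraries. Across tested genes, log2 levels correlated at 0.861 to 0.930 between ECKO libraries and at 0.643 to 0.828 between SMKO libraries, whereas SMKO 1 and ECKO 2 reached 0.929 (Pearson r, which rises with depth). The median SD of a gene over 3 libraries was 0.295 in ECKO and 0.509 in SMKO on the log2 scale. SMKO 2 and SMKO 3 stood apart. The log2 levels of SMKO 2 correlated at 0.870, 0.883 and 0.843 with DKO 1, 2 and 3. With CTRL 1, 2 and 3 they reached 0.822, 0.852 and 0.778, and with ECKO 0.811 to 0.831. Within its own group SMKO 2 reached 0.828 with SMKO 1 and 0.643 with SMKO 3. The cause of its likeness to DKO was not tested. Among 1494 genes with a mean of at least 100 CPM (counts scaled to library size), SMKO 2 lay at least 2-fold above the median of the other 5 libraries for 143 genes and as far below it for 88, and SMKO 3 did so for 69 and 143, while the other 4 libraries had 5 to 24 such genes above and 11 to 29 below. Values that SMKO 2 moves most are therefore given with and without it. In SMKO 3, 1 count is 13.8 CPM. Counting error thus enters its departures and the SD of SMKO, and its share in them was not tested. The labelled tissue was visible in the genes: Mgp, an inhibitor of mineralization that is abundant in valves, stood at 14444 ± 2546 CPM in ECKO and the endothelial surface protein Pecam1 at 297 ± 63.1 (SD, n = 3). Myh11, the myosin that defines contractile smooth muscle, was listed at 0 to 5.14 CPM over the 6 libraries. The cells named by the SMKO code were thus close to unseen by that marker. Acta2, smooth muscle actin, stood at 110.4 to 184 CPM in the same libraries, so the markers were divided.

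Of 6296 genes tested, none was called different between SMKO and ECKO, that is 0% at a Benjamini-Hochberg adjusted p under 0.05 in edgeR's quasi-likelihood test. At an unadjusted p under 0.05 there were 239 genes (3.80%), against 315 that a uniform p would give. Of these, 126 were higher in SMKO (2.00% of genes tested) and 113 lower (1.79%). Only Dct had an adjusted p below 0.5, at 0.168; Nppc followed at 0.802, and every other gene stood at 0.9996 or above. Hence no gene below, Dct included, passed the main test, and "higher" and "lower" describe the values. DESeq2 called 1 gene, limma-voom with library weights called 1, and in both that gene was Dct. edgeR also called Dct when the fit held the 6 SMKO and ECKO libraries alone (adjusted p = 2.22e-04) and without CTRL 2 (6.82e-05), without CTRL 3 (6.27e-04) or without DKO 1 (0.00192). It was not called, with the direction kept, without ECKO 1, 2 or 3 (adjusted p = 0.301, 0.9999 and 0.229), without SMKO 1, 2 or 3 (0.135, 0.797 and 0.339) or with the replicate block (0.765). Against the shared CTRL libraries, edgeR called 0 genes in SMKO (345 at an unadjusted p under 0.05) and 0 in ECKO (273).

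In 584 genes the 3 libraries of one group all lay beyond the 3 of the other (9.28% of genes tested), 250 with SMKO higher (3.97%) and 334 with SMKO lower (5.30%). The median log2 fold change over all genes was -0.0051, with 3110 genes higher in SMKO and 3186 lower, and the median standard error of a fold change was 0.375. A change of at least 2-fold in the fit was reached by 191 genes and of at least 4-fold by 20. The plot of fold change against level shows these genes mostly at low levels, with melanocyte genes such as Dct and Tyrp1 standing out above the cloud. Mitf (-0.19) and Ednrb (-0.35), of the same list, lay within it.

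**Figure D1:**
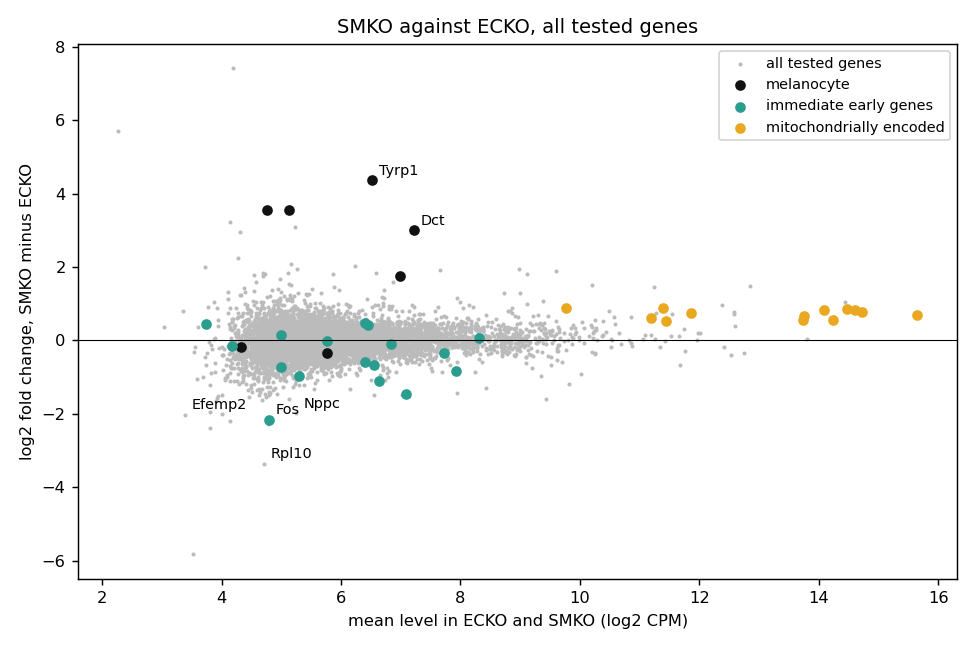
Log2 fold change of SMKO over ECKO from the edgeR fit (vertical axis) against the mean level of the 6 libraries in log2 CPM (horizontal axis), 1 point for each of 6296 genes, with members of 3 lists in colour. Dct and Tyrp1 lie at 3.01 and 4.37, Fos and Nppc near -2, and all 13 mitochondrially encoded genes lie above 0 at the right; the points beyond 5 in size are the Y-linked Ddx3y and Eif2s3y and the predicted gene Gm20075.

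The targeted gene was lower in SMKO than in ECKO. Efemp2 (ENSMUSG00000024909) had 3, 15 and 8 counts in ECKO 1, 2 and 3 and 4, 0 and 0 in SMKO 1, 2 and 3. As levels these were 15.4, 21.9 and 18.4 CPM against 6.81, 0 and 0, while CTRL held 84.5, 35.5 and 66.9 and DKO was listed at 0 in all 3 libraries. No SMKO library reached the lowest ECKO library, but a floor of 3 counts is 15.4 CPM in SMKO 2 and 41.4 in SMKO 3, so the count of 0 allows the level of ECKO 1 in SMKO 2 and that of every ECKO library in SMKO 3. Pooled over libraries, SMKO held 0.237 of the ECKO level (exact binomial 95% interval 0.0601 to 0.683, counting error only). The fitted log2 fold change was -2.03 ± 0.79 with an adjusted p of 0.9996 in edgeR's test, and the exact two-sided permutation test gave p = 0.1, the smallest that 3 against 3 allows. Over the fits that leave out 1 library it ran from -5.85 to -1.65. Set against the same CTRL libraries, SMKO lay at -3.68 ± 0.69 and ECKO at -1.65 ± 0.48. One exon of Efemp2 overlaps Mus81 on the opposite strand, and the libraries keep no strand.

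The smallest p belonged to a gene of the melanocyte, and other genes of this cell type lay the same way. Melanocytes make melanin in a dedicated organelle, the melanosome, and the genes of this program share a regulator, the helix-loop-helix factor Mitf, which binds E-boxes with the core CATGTG (M-box). Of 13 listed genes 7 passed the filter on low counts. Of these 5 were higher in SMKO at an unadjusted p under 0.05 in edgeR's test, against 2.00% of all genes, and 3 had groups that did not overlap, against 3.97%. The median log2 fold change of the 7 was 3.01, against -0.0051 over all genes, and 2.92 without SMKO 2. The list was drawn up with earlier results of these libraries known. Tyrp1, Pmel and Mlana had at most 7 counts in any ECKO library and passed the filter through libraries of the other groups. Their place among the tested genes thus depended on where they were high, so the shares over all genes are no test of the list.

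Promoters of 3 pigment enzymes are printed here because the 3 genes were low together in ECKO; each runs 5′ to 3′ from 250 bases before the start site to 50 after it, with the M-box core or its reverse complement (CACATG) in capitals. They come from RefSeq on GRCm38.p6, while the counts were made on GRCm39.
Dct, chr14:118052197-118052496, minus strand: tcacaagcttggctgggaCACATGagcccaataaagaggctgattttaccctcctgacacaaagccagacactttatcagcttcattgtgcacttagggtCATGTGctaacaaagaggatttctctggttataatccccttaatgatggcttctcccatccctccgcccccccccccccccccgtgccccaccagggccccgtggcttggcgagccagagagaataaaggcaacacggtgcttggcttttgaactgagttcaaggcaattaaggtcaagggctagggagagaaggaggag
Tyr, chr7:87493463-87493762, minus strand: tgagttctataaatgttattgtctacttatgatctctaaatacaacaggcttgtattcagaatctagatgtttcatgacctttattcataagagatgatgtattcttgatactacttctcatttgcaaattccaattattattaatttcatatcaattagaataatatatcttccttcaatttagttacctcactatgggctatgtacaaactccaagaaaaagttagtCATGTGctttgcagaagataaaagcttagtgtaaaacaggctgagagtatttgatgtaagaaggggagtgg
Tyrp1, chr4:80833963-80834262, plus strand: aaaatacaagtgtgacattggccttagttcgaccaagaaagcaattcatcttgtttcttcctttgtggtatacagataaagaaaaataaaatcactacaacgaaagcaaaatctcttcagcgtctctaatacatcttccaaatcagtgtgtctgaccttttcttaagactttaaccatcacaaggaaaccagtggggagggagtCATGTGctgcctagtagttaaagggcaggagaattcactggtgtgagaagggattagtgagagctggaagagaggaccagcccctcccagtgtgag
The core lies 232 and 150 bases upstream of the start in Dct, 21 in Tyr and 46 in Tyrp1. Of the 13 listed genes 9 have a promoter in the RefSeq table, and 5 of these hold the core on either strand (Trpm1 and Oca2 are the others). Among all 32851 promoters of this length the share is 14.2%. That share counts single promoters, whereas Mitf, Kit and Trpm1 have several and a gene counts if any of them matches. A match of letters is a description of the window and does not show binding.

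Dct encodes dopachrome tautomerase, which acts late in the synthesis of eumelanin. Its level was 35.8, 23.3 and 45.9 CPM in ECKO 1, 2 and 3 and 298, 308 and 179 in SMKO 1, 2 and 3, from 7, 16 and 20 and 175, 60 and 13 counts. Every SMKO library lay well above every ECKO library, also the shallow SMKO 3. The means were 35 ± 11.3 and 262 ± 71.5 CPM (SD, n = 3). The log2 fold change was 3.01 ± 0.49 (unadjusted p = 2.67e-05, adjusted 0.168 in edgeR's test), and it stayed between 2.68 to 3.31 in every alternative run. In CTRL the level was 149, 303 and 74.3 CPM and in DKO 318, 149 and 153. ECKO was thus the group that stood apart from the other 3 in Dct, with no library reaching the lowest of the other 9. Against CTRL, SMKO lay at 0.53 ± 0.41 and ECKO at -2.47 ± 0.48.

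Tyrp1, a second enzyme of the eumelanin branch, was at 0, 10.2 and 11.5 CPM in ECKO and 124, 390.3 and 13.8 in SMKO. The groups do not overlap, but SMKO 3 rests on 1 count and lies beside ECKO 2 and 3, so the difference is carried by SMKO 1 and 2 (log2 fold change 4.37 ± 1.01, unadjusted p = 0.00209 in edgeR's test). Tyr encodes tyrosinase, the first enzyme of melanin synthesis, and failed the filter. It had 0, 1 and 0 counts in ECKO and 21, 8 and 0 in SMKO, against 10, 14 and 1 in CTRL and 12, 7 and 4 in DKO. The 3 ECKO libraries together thus held 1 count of Tyr.

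The structural proteins of the melanosome followed the enzymes. Pmel, which forms the fibrils on which melanin is laid down, stood at 0, 7.3 and 6.89 CPM in ECKO and 61.2, 134 and 0 in SMKO (3.57 ± 0.99, unadjusted p = 0.00486 in edgeR's test). Mlana, a small melanosomal membrane protein, stood at 0, 4.38 and 6.89 and 44.2, 108 and 0 CPM (3.57 ± 1.15). Both genes were high in SMKO 1 and 2, and at 0 in SMKO 3 as in ECKO 1, so their groups overlap. Exons of Pmel overlap Dgka and Cdk2 on the opposite strand. Gpnmb, a glycoprotein of melanosomes that macrophages also make, was at 66.6, 48.2 and 66.6 CPM in ECKO and 133, 339 and 110.4 in SMKO. All 3 SMKO libraries were above all 3 ECKO libraries there (1.75 ± 0.55, unadjusted p = 0.0085 in edgeR's test). The tested macrophage genes had a median of 0.43, and their part in Gpnmb was not tested.

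The upstream members were divided. Mitf was at 25.6, 17.5 and 29.8 CPM in ECKO and 22.1, 25.7 and 0 in SMKO, with overlapping groups (-0.19 ± 0.56), and Ednrb, the endothelin receptor needed by migrating melanoblasts and also made by other cells, at 61.4, 67.1 and 57.4 and 59.5, 25.7 and 55.2 CPM (-0.35 ± 0.37). Sox10, the neural crest factor that acts above Mitf, had 0, 0 and 0 counts in ECKO and 14, 1 and 0 in SMKO, and Trpm1, a melanocyte channel, 0, 0 and 0 and 6, 6 and 0. Both were without a count in ECKO and failed the filter. Kit, the receptor of the melanoblast growth factor, had 2, 4 and 4 counts in ECKO and 9, 2 and 1 in SMKO. The transporters Slc45a2 and Oca2 failed the filter too and had at most 6 counts in any of the 6 libraries.

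Summed over all 13 genes, the list came to 205, 188 and 239 CPM in ECKO 1, 2 and 3, 839, 1438 and 373 in SMKO, 510.1, 1037 and 327 in CTRL and 1298, 611 and 643 in DKO. The ECKO sums were the 3 lowest of the 12, although CTRL 3 and SMKO 3 were close to them. The median of the 7 tested members was 0.53 for SMKO against CTRL and -2.47 for ECKO against CTRL, comparisons that share the CTRL libraries. In the authors' TPM, which are scaled by transcript length, the mean level of Dct was 30.3 in ECKO and 178 in SMKO, that of Tyrp1 5.34 and 79, and that of Tyr 0.163 and 6.28. Dct was the most abundant of the 3 enzymes per length in both groups. The list named neural crest and glia, which could hold Schwann cells of valve nerves, had 2 tested members with a median of -0.089.

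**Figure D2:**
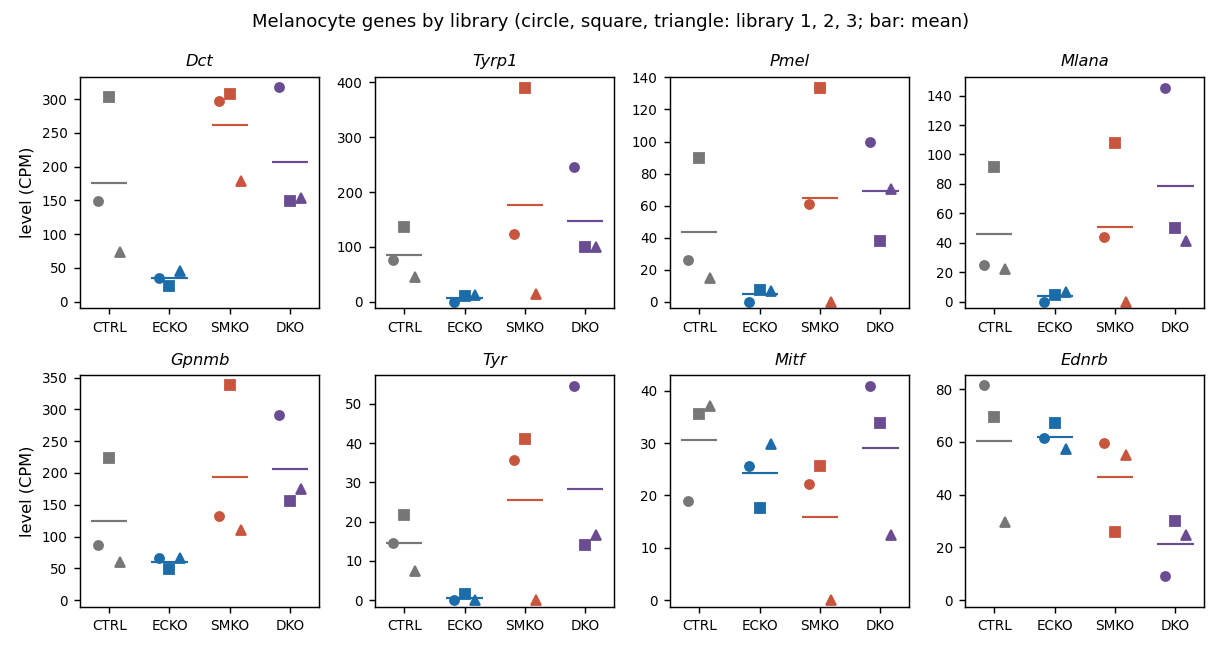
Level in CPM (vertical axes, linear) of 8 melanocyte genes in each of the 12 libraries by group, with circle, square and triangle for libraries 1, 2 and 3 and a bar for the mean of the group. In the pigment genes the 3 ECKO libraries lie near the bottom of each panel, Dct at 23.3 to 45.9 CPM against 74.3 to 318 in the other 9 libraries, while in Mitf and Ednrb they lie among the others; SMKO 3 is at 0 in Pmel, Mlana, Tyr and Mitf.

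Outside the melanocyte list, Ptgds had a difference of similar size. Ptgds, a prostaglandin D synthase made by melanocytes and other cells, was at 10.2, 1.46 and 16.1 CPM in ECKO and 86.8, 41.1 and 69 in SMKO. All SMKO libraries were above all ECKO libraries (3.10 ± 0.89, unadjusted p = 0.00494 in edgeR's test), with 1 to 7 counts in each ECKO library. Mgll, the lipase that breaks down monoacylglycerols, was at 81.9, 71.5 and 84.9 CPM in ECKO and 145, 139 and 152 in SMKO. The values were close within either group and did not overlap (0.87 ± 0.29), although SMKO 3 rests on 11 counts. CTRL ran more widely, from 92.7 to 208 CPM, and DKO from 91.2 to 123. Me1, the cytosolic malic enzyme that supplies NADPH, was at 81.9, 87.5 and 87.2 and 124, 190.0 and 152 CPM (0.81 ± 0.26), again without overlap. Slc7a5, a carrier of large amino acids, was at 10.2, 26.3 and 18.4 and 62.9, 66.8 and 0 CPM (1.41 ± 0.43), high in SMKO 1 and 2 and without a count in SMKO 3. Sox6, a transcription factor of cartilage and neural crest derivatives, was at 25.6, 13.1 and 13.8 and 30.6, 61.6 and 69 CPM (1.52 ± 0.48). It overlapped in no library, though on 5 to 18 counts each. The rest of the 12 genes with the smallest p on this side were Zfp944 (1.83), Mpv17 (0.94), Wsb2 (1.12) and Sirpa (0.93), a receptor that myeloid cells carry. Mpv17 shares exon sequence with a predicted gene on its own strand, and Wsb2 with Rfc5 on the other.

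Among genes lower in SMKO the smallest p belonged to Nppc, which encodes C-type natriuretic peptide, a relaxing and growth-restraining peptide of endothelial cells. It was at 25.6, 87.5 and 59.7 CPM in ECKO and 10.2, 30.8 and 13.8 in SMKO. SMKO 2 lay above ECKO 1, so the groups overlap. The log2 fold change was -1.99 ± 0.48 (unadjusted p = 2.55e-04, adjusted 0.802 in edgeR's test). CTRL stood at 24.8, 20.1 and 29.7 CPM, close to SMKO, and DKO at 86.3, 47.8 and 53.9, close to ECKO. Leaving out SMKO 1 gave -1.30, ECKO 2 -1.53 and SMKO 2 -2.55.

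Cdc42ep3, an effector of the GTPase Cdc42 that organises actin and septins, had groups that did not overlap. Its level was 108, 101 and 94.1 CPM in ECKO and 39.1, 41.1 and 41.4 in SMKO. The SMKO libraries lay close together and far below the lowest ECKO library (-1.32 ± 0.34, unadjusted p = 5.65e-04 in edgeR's test), although SMKO 3 holds only 3 counts. CTRL stood at 112, 68 and 59.4 CPM and DKO at 90.8, 125 and 70.5, all above SMKO. Bcl2, the inhibitor of apoptosis, also had groups that did not overlap, though its SMKO libraries were less close together. Its level was 66.6, 61.3 and 78.1 CPM in ECKO and 25.5, 35.9 and 13.8 in SMKO (-1.33 ± 0.38). The SMKO values rest on 15, 7 and 1 counts. CTRL held 70, 61.8 and 52 CPM of Bcl2, again above every SMKO library.

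Grb10, an imprinted adaptor that restrains insulin and IGF signalling, was at 148, 123 and 122 CPM in ECKO and 85.1, 25.7 and 41.4 in SMKO (-1.08 ± 0.32). The groups do not overlap, and SMKO 2 and 3 were lower than SMKO 1. Cdkn1c, another imprinted gene, encodes a cyclin-dependent kinase inhibitor, and was at 35.8, 37.9 and 36.7 CPM in ECKO and 15.3, 10.3 and 13.8 in SMKO (-1.41 ± 0.58). The SMKO values of Cdkn1c rest on 9, 2 and 1 counts. Here CTRL (16.4 ± 5.74 CPM, SD, n = 3) was near SMKO, so that ECKO was the higher group. DKO, at 4.54, 9.96 and 8.29 CPM, was the lowest. Cp, the copper oxidase ceruloplasmin, was at 143, 131 and 177 and 97, 82.2 and 27.6 CPM (-0.88 ± 0.29). Its groups do not overlap, and its exons overlap Hps3 on the opposite strand. Ensa, a regulator of phosphatase activity at mitosis, was -0.87, and Ift57, a part of the cilium transport machinery, -1.45, both without overlap. Fip1l1, a factor of mRNA 3′ end formation, was -1.23 without overlap, and Clk1, a splicing kinase, -1.07 with overlap. Ankrd33b, at 10.2, 35 and 25.3 CPM in ECKO and 3.4, 10.3 and 0 in SMKO, overlapped too (-2.38 ± 0.75).

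**Figure D3:**
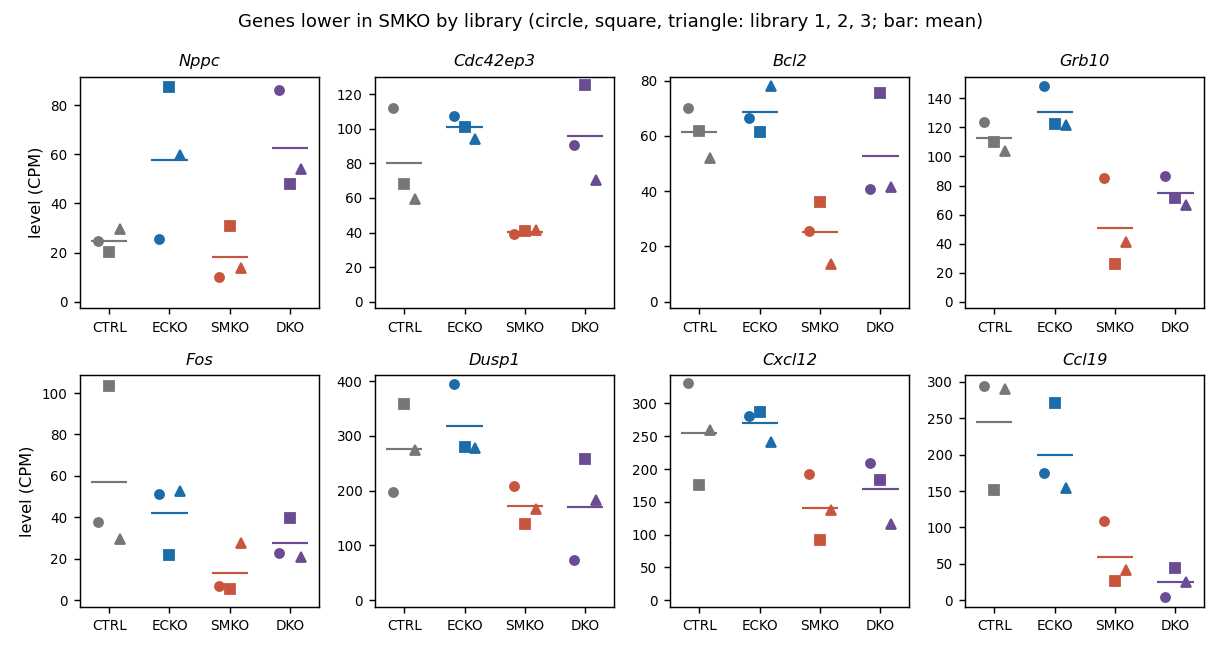
Level in CPM (vertical axes, linear) of 8 genes lower in SMKO in each of the 12 libraries by group, with circle, square and triangle for libraries 1, 2 and 3 and a bar for the mean of the group. In Cdc42ep3 the 3 SMKO libraries sit at 39.1 to 41.4 CPM below all others, while in Nppc SMKO sits near CTRL.

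Immediate early genes are transcribed within minutes of a stimulus, tissue handling included. Of 20 listed genes 17 were tested: 5 were higher in SMKO and 12 lower, and 5 were lower at an unadjusted p under 0.05 in edgeR's test, against 1.79% of all genes. These were Fos, Btg2, Dusp1, Junb and Egr1. The median of the 17 was -0.34, and -0.40 without SMKO 2. Fos, a subunit of the AP-1 factor, was at 51.2, 21.9 and 52.8 CPM in ECKO and 6.81, 5.14 and 27.6 in SMKO. SMKO 3 lay above ECKO 2 and the SMKO values rest on 4, 1 and 2 counts (-2.16 ± 0.68). Egr1, a zinc finger factor, was at 215, 172 and 179 and 42.5, 82.2 and 124 CPM (-1.47 ± 0.65), with every SMKO library below every ECKO library. Dusp1, the phosphatase that switches off MAP kinases, was at 394, 280.2 and 278 and 209, 139 and 166 CPM (-0.84 ± 0.33), also without overlap. One exon of Dusp1 overlaps Ergic1 on the opposite strand. Junb was at 46.1, 67.1 and 52.8 and 28.9, 41.1 and 0 CPM (-0.98 ± 0.42) and Btg2, an antiproliferative factor, -1.10. Levels in CTRL ran wide, from 149 to 422 CPM in Egr1. Against CTRL the list's median was -0.84 in SMKO and -0.22 in ECKO.

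Chemokines were divided. Of 18 listed chemokine and cytokine genes only 6 were tested, 3 higher and 3 lower, with a median of -0.13. Of the 6 tested genes 3 were lower in SMKO without overlap, against 5.30% of all genes. Ccl19, which attracts cells carrying Ccr7, was at 174, 271 and 154 CPM in ECKO and 109, 25.7 and 41.4 in SMKO (-1.48 ± 0.50, unadjusted p = 0.0118 in edgeR's test). CTRL held 294, 151 and 289.8 CPM and DKO 4.54, 43.8 and 24.9, so SMKO 2 and 3 were in the range of DKO and ECKO was in that of CTRL. Cxcl12, the ligand of Cxcr4, was at 282, 287 and 241 CPM in ECKO and 192, 92.4 and 138 in SMKO (-0.87 ± 0.30, unadjusted p = 0.0062 in edgeR's test). The complement list had 4 members higher and 9 lower, with a median of -0.18.

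Matrix genes separated SMKO 2 from the other libraries more than SMKO from ECKO. Sparc, a collagen-binding protein, was at 4357, 3349 and 3175 CPM in ECKO and 2731, 15775 and 2567 in SMKO. SMKO 1 and 3 lay below all ECKO libraries and SMKO 2 far above them, in the range of DKO (11732, 7506 and 12854 CPM) or higher. The log2 fold change was 0.96 ± 0.52 with SMKO 2 and -0.47 without it. Mgp had the same shape, at 9959, 68108 and 11815 CPM in SMKO, with 1.05 and -0.43. The turn of sign without SMKO 2 was shared by Col1a1, the main chain of type I collagen (0.14 and -0.47), and by Eln, the elastin monomer (0.42 and -0.13). It also held for the basement membrane chains Col4a1 (0.42 and -0.15), Col4a2 (1.15 and -0.19) and Col15a1 (1.05 and -0.34), the IGF-binding Igfbp7 (0.73 and -0.48) and the hyaluronan receptor Cd44 (0.41 and -0.53). Exons of Col4a1 and Col4a2 overlap on opposite strands, as do those of Igfbp7 and Polr2b.

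**Figure D4:**
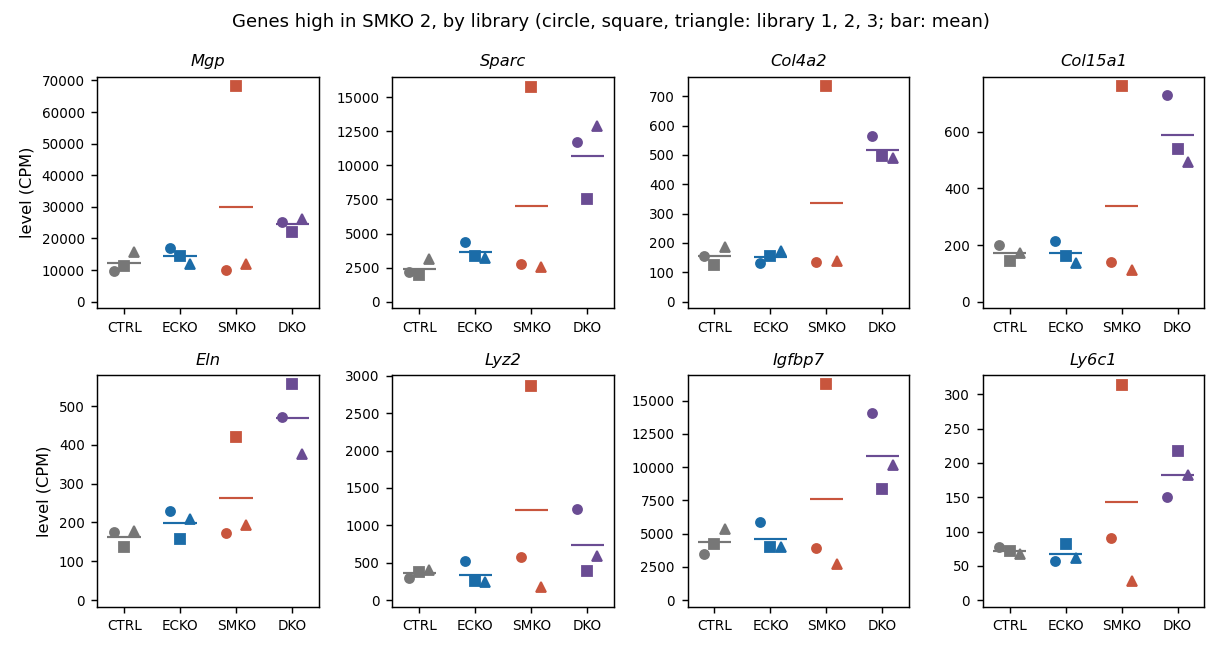
Level in CPM (vertical axes, linear) of 8 genes that were high in SMKO 2, in each of the 12 libraries by group, with circle, square and triangle for libraries 1, 2 and 3 and a bar for the mean of the group. The square of SMKO 2 lies with or above the DKO points in all 8 panels, as in Sparc at 15775 CPM, while SMKO 1 and 3 lie near CTRL and ECKO.

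As lists, the fibrillar collagens and their assembly proteins had 17 members higher in SMKO and 7 lower, none at an unadjusted p under 0.05, with a median of 0.12 that became -0.18 without SMKO 2. Basement membrane genes had 12 higher and 2 lower, 1 of them at an unadjusted p under 0.05 in edgeR's test, against 2.00% of all genes (Col18a1, 0.94 ± 0.41, and 0.11 without SMKO 2), with a median of 0.23 and 0.032 without SMKO 2. The list sum was 1689.7, 1806 and 1710.4 CPM in ECKO and 1608, 3399 and 2070.4 in SMKO. SMKO 2 was again the highest, and SMKO 3 also lay above every ECKO library.

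Elastic fibre and microfibril genes, the family in which fibulin-4 works, were split. Of 21 tested members 10 were higher in SMKO and 11 lower, with a median of -0.026 and -0.27 without SMKO 2. The deleted gene Efemp2 is itself among the 11 and had the lowest value of the list (-2.03). Fbln2, a fibulin of basement membranes and microfibrils, was at 143, 155 and 186 CPM in ECKO and 209, 380.0 and 152 in SMKO (0.65 ± 0.27, unadjusted p = 0.0237 in edgeR's test). SMKO 2 gave much of that difference, and the value without it was 0.23. Fbln1, another fibulin of the matrix, was at 1045, 954 and 1017 and 987, 452 and 538 CPM (-0.58 ± 0.30), with SMKO 1 inside the ECKO range. Fbln5, which brings elastin to microfibrils, was -0.30, and Lox, the crosslinking enzyme that fibulin-4 binds, was 0.25 on at most 11 counts in any of the 6 libraries. Chad, a leucine-rich protein of cartilage that binds collagen, was at 1121, 1719 and 1192 CPM in ECKO and 619, 657 and 883 in SMKO (-0.92 ± 0.40, unadjusted p = 0.0305 in edgeR's test). Every SMKO library was below every ECKO library in Chad, and CTRL (1051, 476 and 809.8 CPM) lay around SMKO and below ECKO.

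Macrophage genes were higher in SMKO in 13 of 18 tested members, 4 of them at an unadjusted p under 0.05 in edgeR's test (against 2.00% of all genes), with a median of 0.43 and 0.33 without SMKO 2. Ctss, a lysosomal protease of antigen-presenting cells, was at 199.7, 214 and 145 CPM in ECKO and 291, 467 and 262 in SMKO (0.89 ± 0.30). It was the only member whose groups did not overlap, against 3.97% of all genes with SMKO higher. Lyz2, lysozyme, was at 517, 258 and 241 and 572, 2871 and 179 CPM (1.88 ± 0.88), with SMKO 2 far above the other libraries. Without SMKO 2 the value was 0.31. Fcer1g, a signalling chain of Fc receptors, was 1.02, Cd68, a lysosomal protein, 1.24, and the surface receptor Adgre1 0.93, each with SMKO 3 below all ECKO libraries. Summed, the list came to 2299, 1509 and 1361 CPM in ECKO and 2429, 5140.3 and 1504 in SMKO. Genes of MHC class I and II were higher in SMKO in 11 of 12 tested members, 1 at an unadjusted p under 0.05, against 2.00% of all genes (H2-T23, 0.66 ± 0.30), with a median of 0.27 and 0.15 without SMKO 2.

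All 13 mitochondrially encoded genes were higher in SMKO, 1 of them (mt-Nd3, 0.87 ± 0.39) at an unadjusted p under 0.05 in edgeR's test (against 2.00% of all genes), with a median of 0.76. The list sum was 221890.0, 125386 and 112050.0 CPM in ECKO and 136328, 326746 and 294834 in SMKO, highest in SMKO 2 and 3 and, within ECKO, in the shallowest library. With log10 depth as a covariate the median was 0.28. Nuclear genes of the respiratory chain did not show it, with 16 higher and 8 lower and a median of 0.055 (-0.074 without SMKO 2). Scaling without the mitochondrial genes left the median of the list at 0.76.

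In the contractile list 3 of 12 tested members were higher in SMKO and 9 lower, with a median of -0.45 and -0.28 without SMKO 2. Acta2, smooth muscle actin, was at 148, 134 and 184 CPM in ECKO and 117, 154 and 110.4 in SMKO (-0.28 ± 0.26). The groups overlap, as they do for Tagln, an actin-bundling protein (-0.68 ± 0.44), whose low values were in SMKO 2 and 3. Tpm1, a tropomyosin shared with heart muscle, had the smallest p of the list (-0.76 ± 0.35). Its level was 164, 395 and 131 CPM in ECKO, with ECKO 2 alone high. ECKO 2 also held the heart muscle genes Actc1 (285 CPM) and Myl2 (137 CPM), which were at 0 to 27.6 CPM in the other 5 libraries. The summed heart muscle list was 307, 1561 and 475 CPM in ECKO and 350.5, 406 and 566 in SMKO, and its part in the value of Tpm1 was not tested. Without ECKO 2 the value of Tpm1 was -0.058 and the contractile list's median -0.38.

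Red blood cell genes, of which 4 of 8 were tested, summed to 41, 5562 and 3352 CPM in ECKO and 2275, 549 and 497 in SMKO. All 4 were lower in SMKO (median -1.24), none at an unadjusted p under 0.05 in edgeR's test, and ECKO 1 had the lowest sum of the 6 libraries. Cd3e and Cd3d, which define T cells, and Cfd and Retn, made by fat cells, were at 0 in all 6 libraries, and none of the 14 lymphocyte and 9 adipocyte genes passed the filter.

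Endothelial genes, the other cell type named by the codes, had 8 of 22 tested members higher in SMKO and 14 lower, with a median of -0.088. Tek, the receptor of angiopoietins, was at 261, 178 and 152 CPM in ECKO and 121, 128 and 110.4 in SMKO (-0.66 ± 0.29, unadjusted p = 0.0302 in edgeR's test). Its SMKO libraries all lay below the ECKO libraries and close to CTRL (149, 119 and 126 CPM). Ly6c1, a surface protein of endothelium, was 1.14 with SMKO 2 and 0.16 without it. Vwf, the clotting carrier, was at 113, 121 and 149 and 64.6, 25.7 and 193 CPM, with SMKO libraries on either side of ECKO (-0.84 ± 0.49), and Pecam1 was 0.28.

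Signalling pathways known in valves gave single genes rather than a shared direction. In the BMP list 7 of 16 tested members were higher in SMKO and 9 lower (median -0.058). Id4, which binds helix-loop-helix factors and blocks them, was at 87, 115 and 75.8 CPM in ECKO and 180.3, 128 and 193 in SMKO (0.81 ± 0.32, unadjusted p = 0.0172 in edgeR's test). All SMKO libraries exceeded all ECKO libraries in Id4, and CTRL was higher still (261, 255 and 319 CPM). Bmpr1a, a type I receptor of BMPs, was at 220.2, 231 and 227 and 182, 139 and 69 CPM (-0.64 ± 0.27), without overlap, and Smad6, an inhibitor of the pathway, was -0.75 with overlap.

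In the Wnt list 13 of 21 tested members were higher and 8 lower (median 0.045, and -0.28 without SMKO 2). Wnt9b, a ligand made by valve endothelium, was at 102, 128 and 138 CPM in ECKO and 141, 308 and 179 in SMKO. The groups do not overlap but SMKO 1 lies beside ECKO 3 (0.72 ± 0.28, unadjusted p = 0.0141 in edgeR's test), and without SMKO 2 the value was 0.27. Axin2, a feedback target of the pathway, was -0.80 with overlap, and the co-receptor Lrp6 -0.49 without.

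The Notch list had 5 of 11 members higher in SMKO (median -0.17, and 0.061 without SMKO 2), and TGF-beta ligands, receptors and inhibitors 8 of 16 (median 0.012). Genes that respond to TGF-beta had 6 of 14 higher (median -0.19, and -0.45 without SMKO 2), and those of the YAP pathway 3 of 13 (median -0.20). None of the TGF-beta or YAP genes reached an unadjusted p under 0.05 in edgeR's test, and in the Notch list 1 did, the ligand Jag1 (-0.81 ± 0.39). In the unfolded protein response 8 of 17 were higher (median -0.00085, and -0.33 without SMKO 2). Hyou1, a chaperone of the endoplasmic reticulum, was its member with the smallest p, at 35.8, 49.6 and 41.3 CPM in ECKO and 13.6, 25.7 and 0 in SMKO (-1.50 ± 0.50). Every SMKO library was below every ECKO library, and SMKO 3 had no count. Among 33 cytosolic ribosomal protein genes the median was -0.073, with Rpl10 far from the rest at 87, 37.9 and 16.1 CPM in ECKO and 0, 15.4 and 0 in SMKO (-3.36 ± 1.25). Rpl10 has near-identical copies elsewhere in the genome, so its count is uncertain.

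Of the 41 lists 35 had at least 5 tested members, and no list had a called member. The medians were above 0 in 14 of the 35. The melanocyte list had the largest median in size and the mitochondrially encoded list the next, and the plot of list medians shows that leaving out SMKO 2 moved the collagen, protease, matricellular and Wnt lists across or away from 0 but left the melanocyte list in place.

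**Figure D5:**
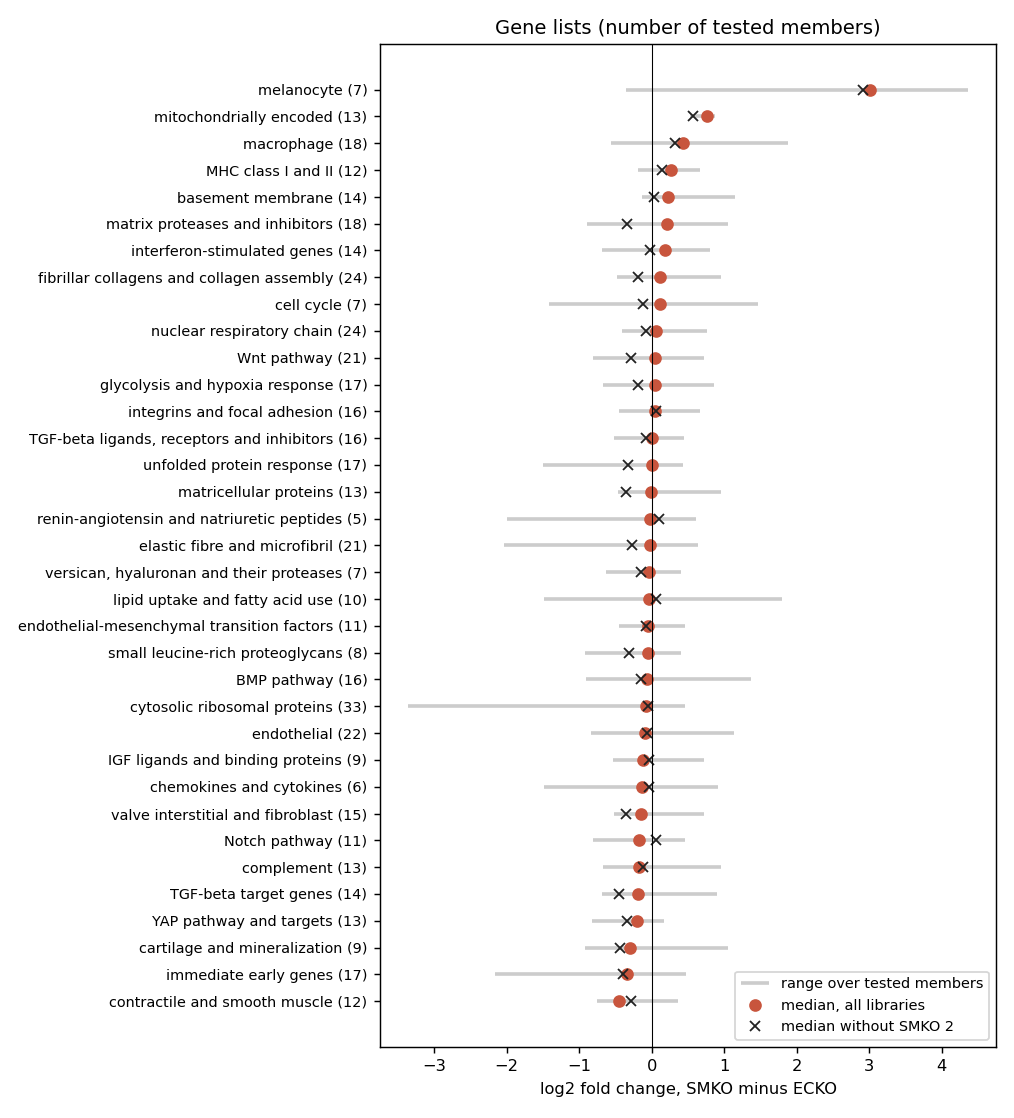
Log2 fold change of SMKO over ECKO (horizontal axis) for the lists with at least 5 tested members, with the number tested in brackets; a grey line spans the members, a filled circle marks the median over all libraries and a cross the median without SMKO 2. The melanocyte median lies at 3.01 and 2.92, while the other circles lie between -0.45 and 0.76.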

How the data were processed

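RNA was measured in 12 libraries of laser-dissected leaflets, cut from sections of 20 μm and read as paired ends of 75 bases from a kit that does not mark strand, per the labels' protocols. The authors deposited total counts per gene and library, which fed every test here, and TPM, which the authors scaled within each library, per the file headers. The submitters' processing notes name GRCm39; the sources used here name no aligner or counter. Depth ran from 74827 to 615665 counts, and intervals and floors of 3 counts cover counting error only.

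Of 41709 genes 16588 had a count, and filterByExpr (minimum count 10) kept 6296. These were TMM-scaled and tested with edgeR 4.0.16's quasi-likelihood test in 1 model of all 12 libraries (8 residual degrees of freedom), contrast SMKO minus ECKO, with Benjamini-Hochberg adjustment over all genes and a threshold of 0.05. Levels are TMM-scaled CPM, mean ± SD; fold changes are log2 with their standard errors. Replicate libraries differed by more than sampling noise. The design, with its tests, was checked on simulated data. Alternatives were DESeq2 1.42.0, voom (limma 3.58.1), other scalings and filters, fewer libraries and added covariates. Named genes are the 12 with the smallest p in each direction, up to 3 per list of at least 5 tested members, and Efemp2; others, such as Tyr, Mlana, Gpnmb, Eln and Pecam1, were added for their roles after their values were seen. Some genes that this rule selects are not reported here. The members and the 41 gene lists were chosen with earlier results of these data known. Overlapping exons were looked up in GENCODE M21. Authors' own comparison columns were not used here.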

Additional observations from a re-analysis of the deposited data

How the results depend on the processing

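The count of 0 called genes in SMKO against ECKO became 1 with DESeq2, 1 with limma-voom, 1 with the 6 libraries alone, 16 of 16588 genes with no filter on low counts (10 higher, 6 lower) and 2 without the 2 shallowest libraries (Dct and Tyr), an alternative chosen after seeing the data, as was a covariate for Y-linked counts (0 called). It was 0 with RLE size factors, TMM without mitochondrial genes, the stricter filter, the depth covariate and the replicate block, where the smallest adjusted p was 0.765; the numbers did not pair the libraries (correlations of same-numbered deviations -0.143, -0.039 and 0.075). Leaving out 1 library gave 0 to 1. Against CTRL, SMKO had 0 called genes, 8 with no filter and 0 to 1 with 1 library left out, and ECKO 0, with 1 in DESeq2, 15 with no filter, 1 without the 2 shallowest and 0 to 2 with 1 left out. With 1 library left out Efemp2 ran from -5.85 to -1.65, and with limma-voom it stood at -1.59.

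Of the log2 fold changes of single genes, those that changed sign did so on 1 library, apart from voom, which down-weights unlike libraries. Without SMKO 2 the sign turned below 0 for the genes that follow, each with its range over all alternative fits. They were Sparc (-0.47 to 1.34), Col4a2 (-0.19 to 1.60), Col15a1 (-0.34 to 1.49), Cd44 (-0.53 to 0.76), Smoc1 (-0.34 to 1.43), Cst6 (-0.42 to 1.89), Ctsd (-0.041 to 1.34), Mgp (-0.43 to 1.47), B2m (-0.057 to 0.98), Igfbp7 (-0.48 to 1.12), Itgb1 (-0.29 to 1.02), S100a4 (-0.40 to 0.78), Eln (-0.13 to 0.72), Col4a1 (-0.15 to 0.72) and Col1a1 (-0.47 to 0.40). With voom it turned for Sparc (-0.020), Cd44 (-0.13), Smoc1 (-0.026), Cst6 (-0.033), Igfbp7 (-0.15), S100a4 (-0.065) and Col1a1 (-0.19). Fn1 turned without ECKO 2 alone (-0.74 to 0.040). In the other 2823 pairs of gene and setting the direction and the side of the threshold stayed the same, and in 16, for 9 genes, a value passed it. The causes were not tested. Depth limits what can be seen: SMKO 3 has 74827 counts, and 1 count is 13.8 CPM there.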

Other observations

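Several lists not described above held single genes on either side of 0. Genes of lipid uptake and fatty acid use were higher in SMKO in 5 of 10 tested members (median -0.041). IGF ligands and binding proteins were higher in 4 of 9 (median -0.11). Integrins and focal adhesion proteins were higher in 9 of 16 (median 0.042), and genes listed for the endothelial-mesenchymal transition in 5 of 11 (median -0.051). None of the tested members of these 4 lists reached an unadjusted p under 0.05 in edgeR's test. Interferon-stimulated genes were higher in 11 of 14 (median 0.19, and -0.023 without SMKO 2). The only member at an unadjusted p under 0.05 in edgeR's test was Irf9, which was lower in SMKO (-0.68 ± 0.32). Over all genes 1.79% were lower at that threshold. Glycolysis and hypoxia genes were higher in 9 of 17 (median 0.043, and -0.19 without SMKO 2).

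Some genes of low level had large fitted changes and were picked out after their values were seen. Wnt7a, a Wnt ligand, was at 5.12, 4.38 and 0 CPM in ECKO and 8.51, 87.3 and 0 in SMKO, and Sema3g, a secreted guidance protein of endothelium, at 5.12, 4.38 and 9.18 and 5.1, 92.4 and 0. Both were high in SMKO 2 only. Sphk1, which makes sphingosine-1-phosphate, was at 0, 5.84 and 6.89 CPM in ECKO and 23.8, 15.4 and 27.6 in SMKO, from 0, 4 and 3 and 14, 3 and 2 counts, and its groups do not overlap. Frmd4a, a scaffold protein of cell junctions, was at 30.7, 21.9 and 23 and 6.81, 0 and 13.8 CPM, with every SMKO library below every ECKO library.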
